A study of Drosophila melanogaster with 6 samples.

Results

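The genes described here encode the gustatory receptors (Gr) and ionotropic receptors (Ir) of Drosophila melanogaster, measured in heads of adult males on Affymetrix arrays. They were taken as every probe set with a single gene symbol made of Gr or Ir, digits and a letter in the platform annotation, and where a gene had several, the probe set brightest on average over the 6 arrays stood for it. This gave 109 genes, 56 Gr and 53 Ir, out of 11982 genes with such a probe set. A probe set is a group of short probes read as 1 value for a transcript. Another 17 Gr and Ir genes of the gene table had no such probe set under their symbol. Some of these share a probe set with another gene and are described at the end.

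The arrays came from 3 groups of 2 biological replicates: rescue flies, mutant flies and control flies. Rescue flies were homozygous dme-miR-14 mutants in which dme-miR-14, a microRNA, was expressed in the insulin-producing cells (IPCs), neurons of the brain that release insulin-like peptides. Mutant flies were homozygous dme-miR-14 mutants without that expression, and control flies are labelled wild-type. All were 5-day-old males kept on similar food. Heads were taken off frozen flies by vortexing. The labels name neither the mutant allele nor the driver used for the IPCs, nor how many heads were pooled. The p-values therefore measure the spread between these arrays only. A difference between the groups in genetic background, or one brought by the driver, cannot be told apart from an effect of miR-14. The study looked for genes that the mutation raised and that the rescue lowered again.

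Gustatory receptors are membrane proteins of taste neurons, where they detect sugars and bitter compounds, and a few serve in the antenna for carbon dioxide or in warmth sensing. Ionotropic receptors are relatives of ionotropic glutamate receptors. In the antenna a tuning receptor works together with a broadly used co-receptor (Ir8a, Ir25a or Ir76b) to detect acids, amines, humidity or temperature, and other Ir genes act in taste organs. Each tuning receptor is typically used by few neurons, so its transcript is a small share of the RNA of a whole head.

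Most receptor genes were too dim to be told from background. The table has no detection call, so a dim level was set on each array as the highest of the 17 Tag control probe sets, which have no target in fly RNA. This limit was 33.6 and 31.7 in rescue, 35.4 and 39.3 in mutant, and 39.8 and 35.9 in control. Of the 109 genes, 22 lay above the dim level on both arrays of at least 1 group, which is 20.2%, against 72.7% of all 11982 genes. They were 21 in rescue, 14 in mutant and 18 in control, and 13 were above it in all 3 groups. A lower dim level on the rescue arrays goes with the larger count there. On every array 84 genes stayed at or under the dim level. The share was 24.5% among Ir genes (13 of 53) and 16.1% among Gr genes (9 of 56), and no test of that difference was made. Odorant receptor genes, the other large chemosensory family, had 25.0% (14 of 56).

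**Figure D1:**
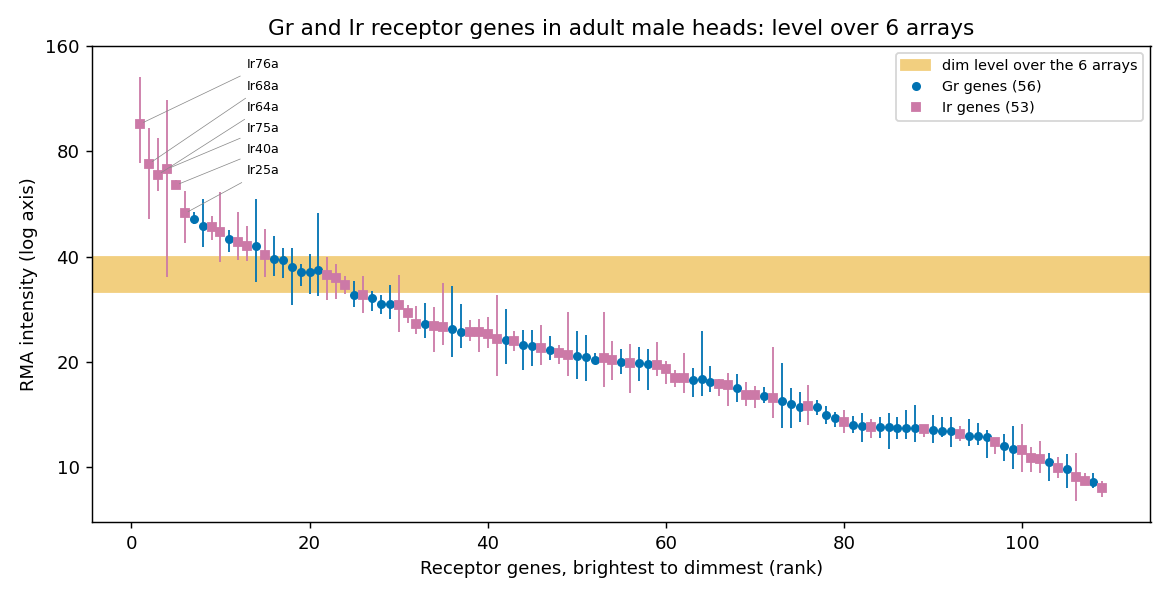
Level of each of the 109 receptor genes, ranked by mean, as RMA intensity on a log axis. Points are means over the 6 arrays, lines run from the lowest to the highest array, and the band spans the dim levels of the arrays, from 31.7 to 39.8. The 6 brightest genes are Ir genes, and 84 genes stay at or under the dim level on every array.

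The median receptor gene had a mean intensity of 20.0, against 120.0 over all genes, and stood at the 15.3 percentile of all genes. Values over all receptor genes and arrays ran from 8.0 to 130.6. The dim level is itself a rough limit. The 9 measured eggshell genes of the ovary, which are not expected in a male head, read between 11.5 and 104.0. Only 2 receptor genes, Ir76a and Ir75a, exceeded 104.0 on any array. With the 95th percentile of the eggshell genes as the limit, 1 receptor gene was above it, and with the median of all probe sets, 5 were.

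The heads carried the markers of their tissue. The photoreceptor genes trp, inaD and chp read from 3210.1 to 8020.8 and the glial genes repo and moody from 564.1 to 890.6. Some of these markers moved between groups (limma). In rescue against control trp, inaD and chp fell by 0.52, 0.47 and 0.50 on the log2 scale (adjusted p from 0.00905 to 0.014), and in rescue against mutant inaD and chp fell by 0.57 and 0.49 (adjusted p = 0.0247 and 0.0457). The glial gene moody rose in mutant against control (0.64, adjusted p = 0.00275) and in rescue against control (0.56, adjusted p = 0.00492), while repo did not pass. Lsp2, a storage protein gene of the fat body, was lower in mutant than in control (-0.76, adjusted p = 0.00215) and rose in rescue against mutant (0.67, adjusted p = 0.0129), an order it shares with Ir68a below. The other fat body markers, Yp1, Fbp1 and apolpp, passed in neither comparison. They gave -0.20, -0.13 and 0.14 in mutant against control (adjusted p = 0.654, 0.523 and 0.31). In rescue against mutant they gave 0.10, -0.13 and -0.00 (adjusted p = 0.914, 0.708 and 0.993). The part of the marker shifts in the receptor differences was not tested. Markers of testis, accessory gland, midgut and flight muscle were mostly dim, with 1 gene of each list above the dim level (Mst98Ca, Acp62F, betaTry and Act88F). The ratio of 5' to 3' signal, a sign of RNA quality, was for the actin control 0.37 and 0.45 in rescue, 0.205 and 0.335 in mutant, and 0.306 and 0.138 in control. For GAPDH it was 0.474 and 0.514 in rescue, 0.397 and 0.46 in mutant, and 0.434 and 0.281 in control. Both rescue arrays were the highest for both controls and control replicate 2 the lowest. Replicates correlated across all probe sets at 0.998 in rescue, 0.997 in mutant and 0.994 in control. Between replicates, no receptor gene in rescue, 1 in mutant and 2 in control differed by at least 1.5-fold.

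Differences between groups were tested with limma over all 18769 probe sets, and a gene was called at a Benjamini-Hochberg adjusted p under 0.05. In the comparison of mutant with control, which asks what differs in flies lacking miR-14, 1 receptor gene rose (Ir25a) and 3 fell (Ir68a, Gr28a and Gr39a), while 105 did not pass. These are 0.917% and 2.75% of the receptor genes, against 6.88% higher and 3.88% lower among all probe sets. Of the 22 genes above the dim level, 1 rose and 2 fell, or 4.55% and 9.09%, against 10.7% higher and 5.11% lower among all probe sets above that level. Gr28a, 1 of the genes that fell, was above that level only in control, the group where it was high. Entry through 1 group favours a call, so these shares are descriptive only. The median log2 difference was -0.043 over the receptor genes and -0.034 over all probe sets. All but 2 of the 109 genes lay within 0.5 of 0 on the log2 scale.

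In the comparison of rescue with mutant, which asks what differs in flies with miR-14 expressed in the IPCs, 2 receptor genes rose (Ir76a and Ir68a), 1 fell (Ir75a) and 106 did not pass. These are 1.83% and 0.917% of the receptor genes, against 0.693% higher and 0.709% lower among all probe sets. All 3 were above the dim level, where 1.1% of all probe sets were higher and 1.11% lower. The median log2 difference was 0.007, against -0.015 over all probe sets. In the comparison of rescue with control 2 rose (Ir76a and Ir25a), 2 fell (Ir75a and Gr28a) and 105 did not pass. These are 1.83% each, against 6.83% higher and 5.25% lower among all probe sets. All 4 were above the dim level in at least 1 group, Gr28a only in control, where it was highest. Of all probe sets above that level, 10.8% were higher and 7.19% lower. The 3 comparisons share arrays, so their calls are not independent of each other. No receptor gene both rose in the mutant and fell in the rescue against the mutant. Only Ir25a rose in the mutant and only Ir75a fell in the rescue against it, so an overlap had little room to appear. The share of all probe sets that did both was not counted here.

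**Figure D2:**
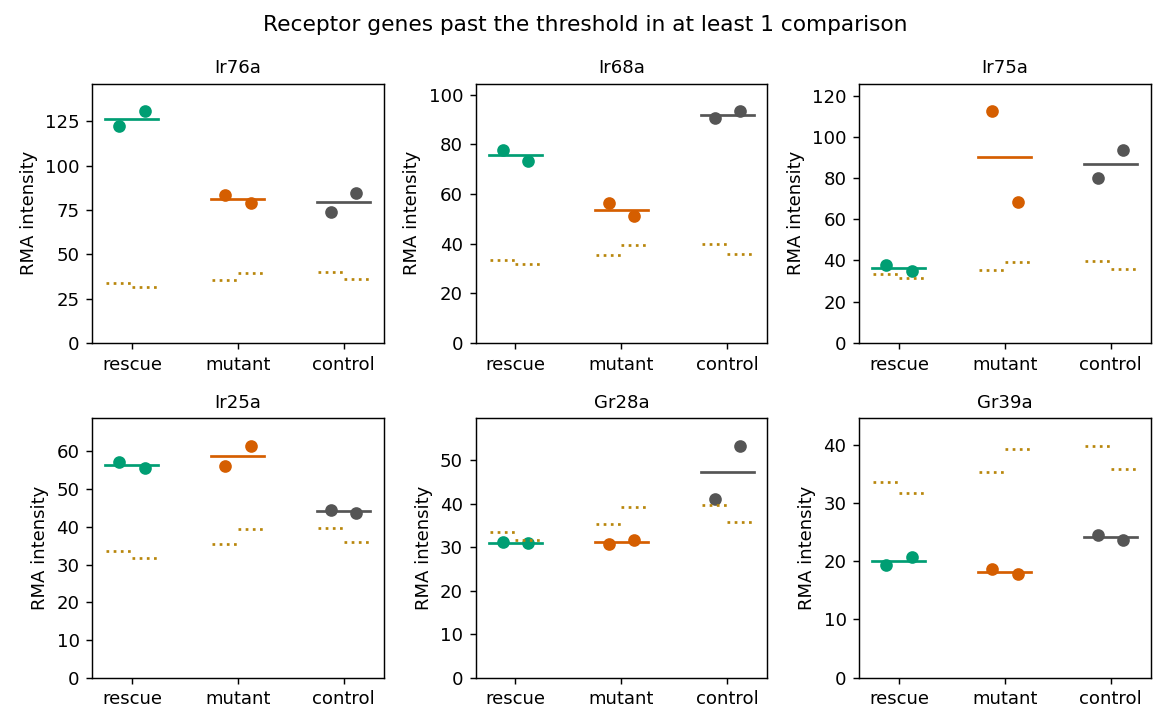
RMA intensity of the 6 receptor genes past the threshold in at least 1 comparison, with a point per array, a line at the group mean and dotted lines at the dim level of each array. Ir76a is highest in rescue, Ir75a lowest in rescue, Ir68a lowest in mutant, Ir25a lower in control than in both other groups, and Gr28a and Gr39a highest in control. Gr39a lies under the dim level on every array.

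The co-receptors come first among the Ir genes. Ir25a, the most widely used co-receptor, was 57.2 and 55.6 in rescue, 56.2 and 61.4 in mutant, and 44.6 and 43.7 in control. Both control arrays were below all 4 others. It rose in mutant against control by 0.41 ± 0.081 SE on the log2 scale, or 1.33-fold (limma, adjusted p = 0.0215). It was also higher in rescue than in control, by 0.35 ± 0.081 (adjusted p = 0.0351), and did not pass between rescue and mutant (-0.06, adjusted p = 0.826). The call against control did not hold without control replicate 2 (0.40, adjusted p = 0.0517 for the mutant) or when any mutant or rescue array was left out. In rescue against control it was also lost once the 5' to 3' ratios entered the fit (0.30, adjusted p = 0.183) and with 75th percentile scaling (0.29, adjusted p = 0.0591).

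Ir76b, a co-receptor for amines that also serves salt and amino acid taste, was 41.8 and 47.8 in rescue, 39.2 and 43.2 in mutant, and 35.0 and 35.8 in control. The control arrays were again the lowest, but no comparison passed (rescue against control 0.34, adjusted p = 0.0675). Ir8a, the co-receptor of acid-sensing Ir neurons, was 27.1 and 25.4 in rescue, 28.6 and 21.3 in mutant, and 25.2 and 24.0 in control. It was under the dim level on every array, and the groups overlapped.

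Ir76a, a tuning receptor for amines in coeloconic sensilla of the antenna, was the brightest receptor gene, at the 45.4 percentile of all genes. It read 122.5 and 130.6 in rescue, 83.7 and 79.2 in mutant, and 73.9 and 84.7 in control. Both rescue arrays were above all others, while mutant and control overlapped. It was higher in rescue than in mutant by 0.64 ± 0.095, or 1.55-fold (adjusted p = 0.0296), and than in control by 0.68 ± 0.095, or 1.6-fold (adjusted p = 0.00678). Mutant and control gave 0.04 ± 0.095 (adjusted p = 0.815). The call against the mutant was lost on leaving out any rescue or mutant array, with adjusted p between 0.18 and 0.246, and that against control did not hold without either rescue array (adjusted p = 0.052 and 0.0728).

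Ir75a, a receptor for small carboxylic acids that works with Ir8a, showed the largest difference of any receptor gene and was low in rescue. It read 37.9 and 34.9 in rescue, 112.3 and 68.3 in mutant, and 80.1 and 93.4 in control. The rescue arrays were just above their dim levels and below all others, and the mutant arrays lay on either side of both control arrays. It was 2.41-fold lower in rescue than in mutant (-1.27 ± 0.22, adjusted p = 0.0459) and 2.38-fold lower than in control (-1.25 ± 0.22, adjusted p = 0.014). With rescue so near the dim level, the size of the difference is uncertain. Without mutant replicate 1 the difference from the mutant was -0.91 (adjusted p = 0.102), and neither call held without either rescue array (adjusted p between 0.0903 and 0.314) or once the 5' to 3' ratios entered the fit (adjusted p = 0.0504 and 0.093).

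The neighbouring gene Ir75b, another acid receptor, was 18.2 and 22.5 in rescue, 31.1 and 22.7 in mutant, and 24.0 and 21.1 in control. Its rescue and control arrays overlapped, all were under the dim level, and no comparison passed (rescue against mutant -0.39, adjusted p = 0.382).

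Ir68a is a receptor for moist air that works with Ir25a and Ir93a in the sacculus of the antenna. It read 77.9 and 73.3 in rescue, 56.2 and 51.2 in mutant, and 90.5 and 93.3 in control. The 3 groups did not overlap, with the mutant lowest and the control highest. It fell in mutant against control by 0.78 on the log2 scale (SE 0.085, adjusted p = 0.00231), a call that held under each of 14 alternatives. It was higher in rescue than in mutant by 0.49 ± 0.085, or 1.41-fold (adjusted p = 0.0467), and its difference from control did not pass (-0.28, adjusted p = 0.076). With 75th percentile scaling rescue was lower than control (-0.35, adjusted p = 0.0418). The mutant arrays enter both calls. With the replicate number as a block, or with trend and robust eBayes, the rise in rescue against mutant did not pass (adjusted p = 0.111 and 0.0502). The rise in the rescue was lost on leaving out any rescue or mutant array, with adjusted p between 0.177 and 0.365.

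The other listed receptors of humidity and temperature did not pass, and their difference from Ir68a was not tested. Ir40a, a receptor for dry air in the same organ, was 66.2 and 62.2 in rescue, 62.5 and 65.1 in mutant, and 62.4 and 65.5 in control. Its groups overlapped fully and its differences were within 0.01 of 0 (SE 0.08, adjusted p from 0.972 to 0.985). Ir93a and Ir21a, partners of Ir25a in humidity and cool sensing, stayed under the dim level, Ir93a at 16.3 to 22.5 and Ir21a at 16.9 to 27.8, and neither passed. Ir21a was 18.6 and 19.3 in rescue, 19.5 and 16.9 in mutant, and 20.9 and 27.8 in control, so both control arrays were the highest (mutant against control -0.41, adjusted p = 0.124). It passed without control replicate 1, both in mutant against control (-0.61, adjusted p = 0.0116) and in rescue against control (-0.55, adjusted p = 0.0137).

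Of the 8 measured antennal olfactory Ir genes, 5 were above the dim level in at least 1 group. Besides Ir76a and Ir75a these were Ir64a, an acid sensor of the sacculus, Ir31a and Ir41a, a polyamine receptor. Ir64a was 65.9 and 66.2 in rescue, 61.4 and 66.3 in mutant, and 64.1 and 87.5 in control, with control replicate 2 above the rest. Ir31a was 39.1 and 45.8 in rescue, 53.8 and 41.2 in mutant, and 41.1 and 43.5 in control, and the groups overlapped. Neither passed in any comparison. Left with control replicate 2 as the only control array, Ir64a gave -0.46 in mutant against control and -0.41 in rescue against control. Ir84a, a receptor for food aromatics linked to male courtship, and Ir92a, an ammonia receptor, stayed between 13.2 and 19.0 on all arrays.

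**Figure D3:**
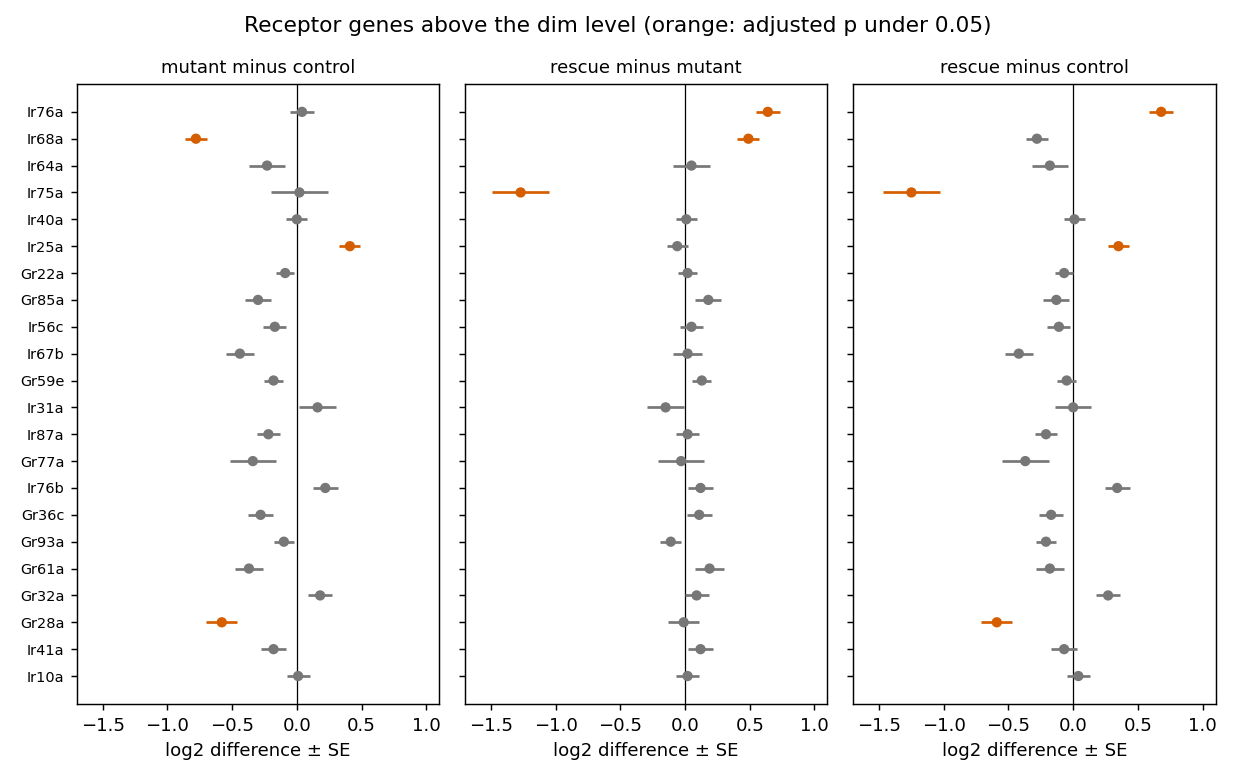
Log2 differences with their standard errors for the 22 receptor genes above the dim level in at least 1 group, in 3 comparisons, ordered by brightness. Points in orange passed an adjusted p of 0.05. Ir75a has the largest difference, -1.27 and -1.25 in rescue against mutant and control, while Ir40a stays at 0.

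Markers of the antenna moved between the groups as well, in different directions. Of 15 measured antennal markers, 9 were above the dim level in rescue, 5 in mutant and 9 in control. Against control 5 fell and 0 rose in the mutant (3 were higher at an unadjusted p under 0.05), 4 rose and 2 fell in the rescue, and against the mutant 3 rose and 1 fell in the rescue (limma). Over all probe sets the shares that passed, higher and lower, were 6.88% and 3.88% in mutant against control, 6.83% and 5.25% in rescue against control, and 0.693% and 0.709% in rescue against mutant. The summed intensity of the 15 markers was 1335.2 and 1400.1 at the lowest and highest in rescue, 1162.5 and 1162.6 in mutant, and 1327.1 and 1600.3 in control. These sums rest largely on bright genes that moved in opposite directions, so they do not measure antennal tissue. The bright gene Obp28a was 307.0 and 244.3 in rescue, 164.4 and 222.9 in mutant, and 607.3 and 353.2 in control. Obp69a, also bright, was highest in mutant. Orco, the co-receptor of odorant receptors, was 64.1 and 62.3 in rescue, 55.5 and 60.2 in mutant, and 124.8 and 97.8 in control. The odorant binding protein gene lush was 103.2 and 111.6 in rescue, 43.4 and 37.5 in mutant, and 42.7 and 46.5 in control, so it was highest in rescue. Os-C, which encodes a secreted antennal protein, was 123.3 and 119.4 in rescue, 26.1 and 32.2 in mutant, and 61.9 and 82.7 in control. Obp69a, another odorant binding protein gene, ran the other way, with 177.8 and 170.9 in rescue, 384.4 and 353.5 in mutant, and 306.6 and 255.5 in control. Its rescue arrays were the lowest, as for Ir75a, and it fell in rescue against mutant by 1.08 (adjusted p = 0.00606) and against control by 0.68 (adjusted p = 0.00984). Whether the arrays hold unequal amounts of antennal tissue, and its part in the Ir differences, was not tested. Markers of the maxillary palp, the smaller olfactory organ, summed to 171.6 and 174.4 in rescue, 165.4 and 171.0 in mutant, and 204.8 and 217.4 in control. In the mutant against control 2 of 7 fell, Or42a and Or85e. Of the 7 only Or85e was above the dim level on both arrays of any group. The sums are therefore mostly signal near background and do not measure palp tissue. In whole heads, fewer cells of a type and less RNA per cell cannot be told apart.

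**Figure D4:**
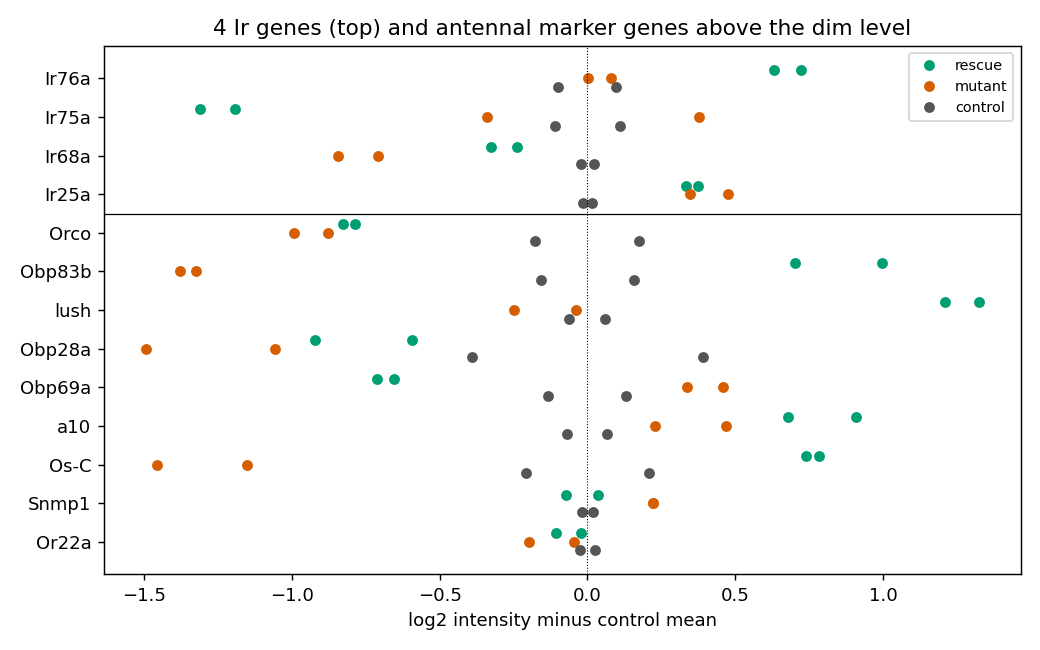
Log2 intensity of 4 Ir genes and of the 9 antennal marker genes above the dim level, on each array, minus the mean of the control arrays. Green points are rescue, orange points mutant and grey points control. Orco is lower in rescue and mutant than in control, Obp83b and Os-C are lowest in mutant and highest in rescue, Ir76a and lush are highest in rescue, and Ir75a and Obp69a are lowest in rescue.

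Taste Ir genes were dim. None of the 11 measured was above the dim level on both arrays of any group, and their values ran from 8.0 to 39.8. Ir56a was the brightest, at 33.7 and 30.1 in rescue, 38.1 and 30.8 in mutant, and 39.8 and 39.7 in control. Ir56d, which serves fatty acid taste, was 26.3 and 23.0 in rescue, 23.6 and 24.9 in mutant, and 23.7 and 24.3 in control. None of the 11 passed in any comparison (limma, at most 3 of them in 1 direction at an unadjusted p under 0.05), the lowest adjusted p being 0.0744 for Ir94e between mutant and control (-0.31). With 75th percentile scaling Ir94e passed in mutant against control (-0.40, adjusted p = 0.0315). When control replicate 1 was left out, so that control rested on 1 array, Ir52c gave -0.48 in mutant against control and -0.56 in rescue against control. Misses at such low signal do not show that the groups were alike.

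Among other Ir genes, Ir56c and Ir67b belonged to the 8 brightest of the family. Ir56c was 51.1 and 44.7 in rescue, 46.3 and 45.8 in mutant, and 51.0 and 52.3 in control. Ir67b was 42.8 and 42.1 in rescue, 45.1 and 38.7 in mutant, and 52.3 and 61.3 in control. Both control arrays of Ir67b were the highest, but it narrowly missed the threshold in mutant against control (-0.44 ± 0.11, adjusted p = 0.0514) and in rescue against control (-0.42 ± 0.11, adjusted p = 0.0564). It passed in both when the test was limited to probe sets above the dim level (adjusted p = 0.0437 and 0.0467) and with 75th percentile scaling (adjusted p = 0.0292 and 0.0353). Without control replicate 1, with control resting on 1 array, its differences were -0.55 and -0.53. With the 5' to 3' ratios in the fit it passed in mutant against control (-0.34, adjusted p = 0.0327).

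Of 9 sugar receptors listed, 5 were measured by a probe set of their own, and none passed in any comparison (limma, adjusted p of at least 0.0832, with at most 1 in a comparison at an unadjusted p under 0.05). Gr43a, a fructose receptor that also acts in the brain as a sensor of fructose in the blood, was 21.2 and 19.7 in rescue, 20.2 and 20.2 in mutant, and 20.2 and 20.2 in control. It was under the dim level on every array and its groups did not differ beyond their spread (largest difference 0.02 ± 0.077). Gr64f, a co-receptor of most sugar receptors, was 22.5 and 24.0 in rescue, 23.8 and 20.5 in mutant, and 24.6 and 19.0 in control, with full overlap.

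Gr5a, a trehalose receptor, was 33.6 and 32.9 in rescue, 37.0 and 38.1 in mutant, and 36.7 and 37.8 in control. The rescue arrays were the lowest, without passing (rescue against mutant -0.18 ± 0.074, adjusted p = 0.369). Gr61a, a glucose receptor, was 37.6 and 36.8 in rescue, 29.1 and 36.3 in mutant, and 41.9 and 42.3 in control. Both control arrays were the highest, and mutant against control gave -0.37 ± 0.11 (adjusted p = 0.0832). With 75th percentile scaling this difference passed (-0.46, adjusted p = 0.0408). Gr64a, a receptor for maltose and related sugars, read from 15.4 to 18.5.

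Bitter receptors contained both called Gr genes. Gr28a was 31.3 and 30.9 in rescue, 30.8 and 31.7 in mutant, and 41.2 and 53.3 in control. Only the control arrays were above the dim level, so the size of its difference is uncertain. It was lower in mutant than in control (-0.58 ± 0.12, adjusted p = 0.0276) and in rescue than in control (-0.59 ± 0.12, adjusted p = 0.0257), and rescue and mutant gave -0.01 (adjusted p = 0.991). The call in the mutant was lost on leaving out any mutant or rescue array, with adjusted p between 0.0728 and 0.151. That in the rescue was lost in the same way, with adjusted p between 0.0641 and 0.161, and also once the 5' to 3' ratios entered the fit (-0.37, adjusted p = 0.172). Its neighbour Gr28b, which serves warmth and light sensing, was 20.0 and 21.7 in rescue, 20.7 and 16.6 in mutant, and 20.2 and 18.9 in control, and no comparison passed.

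Gr39a, which takes part in bitter taste and male courtship, was 19.3 and 20.7 in rescue, 18.6 and 17.9 in mutant, and 24.5 and 23.7 in control on the probe set used. Mutant against control gave -0.40 ± 0.079 (adjusted p = 0.0223), all of it under the dim level. The gene has 5 probe sets, which may read different transcripts, and the other 4 gave -0.12, -0.14, -0.05 and -0.07 in this comparison with adjusted p from 0.358 to 0.741. The second brightest of the 5 passed in rescue against control (-0.30, adjusted p = 0.0481), where the probe set used did not (-0.27, adjusted p = 0.072). The call in the mutant was lost on leaving out any mutant or rescue array, with adjusted p between 0.0578 and 0.149.

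The remaining core bitter receptors did not pass. Gr32a, which also serves male courtship, was 40.7 and 37.4 in rescue, 34.9 and 38.5 in mutant, and 33.6 and 31.3 in control. Its rescue arrays alone were both above the dim level. Gr66a, the usual marker of bitter neurons, was 22.7 and 24.6 in rescue, 22.9 and 22.2 in mutant, and 21.6 and 19.5 in control. Gr33a, another broadly used bitter receptor, read from 15.3 to 17.0. Gr89a was 24.7 and 23.4 in rescue, 24.5 and 23.4 in mutant, and 28.4 and 29.4 in control, highest in control without passing (adjusted p = 0.0721 and 0.0751). With 75th percentile scaling it passed in mutant against control (-0.36, adjusted p = 0.0343) and in rescue against control (-0.33, adjusted p = 0.0399). Among bitter receptors for single compounds, the caffeine receptor Gr93a was above the dim level in all 3 groups, at 37.9 and 34.8 in rescue, 38.7 and 39.7 in mutant, and 41.8 and 42.2 in control. Its highest arrays were the controls, and no comparison passed. Gr8a, Gr22e, Gr47a, Gr59c and Gr98b ran from 11.3 to 29.3.

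The carbon dioxide receptor is formed by Gr21a and Gr63a in the antenna. Gr63a was 28.6 and 31.0 in rescue, 29.4 and 29.6 in mutant, and 33.6 and 34.1 in control. Gr21a was 20.5 and 19.2 in rescue, 22.0 and 21.0 in mutant, and 18.6 and 17.6 in control. All values were under the dim level, the partners were ordered differently over the groups, and neither passed (adjusted p from 0.104 to 0.969). Gr68a, a courtship receptor of the male foreleg, was among the dimmest at 9.1 to 11.0, on arrays of heads.

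The brightest Gr gene was Gr22a, at 50.6 and 50.7 in rescue, 50.3 and 49.6 in mutant, and 53.7 and 52.8 in control. Gr85a followed, at 50.9 and 47.3 in rescue, 42.6 and 44.3 in mutant, and 49.0 and 58.6 in control. Gr59e, at 46.4 and 44.8 in rescue, 41.1 and 42.5 in mutant, and 47.6 and 46.9 in control, was likewise lowest in mutant. Gr77a spread widely between replicates, with 33.8 and 44.1 in rescue, 41.1 and 37.8 in mutant, and 42.5 and 58.4 in control. None of these 4 genes passed in any comparison. With control replicate 2 as the only control array, mutant against control gave -0.57 for Gr77a and -0.43 for Gr85a.

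Position in the genome was not used to choose the genes. By the order of protein-coding genes in Release 6 of the fly genome, 54 of the 109 lay in 21 runs of 2 or more adjacent Gr or Ir genes, the longest being the 6 genes Gr64a to Gr64f. Of these 54, 8 were above the dim level, and no run had more than 1 such gene. By chromosome, the genes above the dim level were 1 of 15 on X, 7 of 21 on 2L, 3 of 30 on 2R, 8 of 17 on 3L and 3 of 26 on 3R, with no test of these shares.

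Among 30 other genes of taste and smell signalling, 25 were measured. In mutant against control 1 rose and 4 fell, in rescue against mutant 1 rose and 1 fell, and in rescue against control 3 rose and 5 fell (limma). The shares over all probe sets were 6.88% higher and 3.88% lower, 0.693% and 0.709%, and 6.83% and 5.25% in the same comparisons. Of the 25 genes, 23 were above the dim level in at least 1 group. Among all probe sets above that level the shares were 10.7% and 5.11%, 1.1% and 1.11%, and 10.8% and 7.19%. The 1 of 25 higher in the mutant was under these shares. Every other count was over them, some resting on 1 gene, and no test of this was made. The 4 lower in mutant against control were ppk29, Orco, Galphaq and trpl, and the 1 lower in rescue against mutant was trpl. Both trpl and Galphaq were also among the 5 lower in rescue against control. The median log2 differences of the 25 genes were -0.083, -0.018 and -0.107 in these comparisons, against -0.034, -0.015 and -0.049 over all probe sets. ppk29, an ion channel gene of pheromone-sensing taste neurons, was 50.7 and 49.8 in rescue, 57.2 and 49.5 in mutant, and 87.9 and 81.5 in control. It was lower in mutant than in control by -0.67 ± 0.096 (adjusted p = 0.00708) and lower in rescue than in control (-0.75 ± 0.096, adjusted p = 0.00451). Its partner ppk23 did not pass, at 57.2 and 61.7 in rescue, 56.5 and 60.6 in mutant, and 55.1 and 60.8 in control. Poxn, which specifies taste bristles, was 66.7 and 57.6 in rescue, 63.4 and 67.2 in mutant, and 65.1 and 72.5 in control, and the groups overlapped. Several others, such as trpl and Galphaq, are abundant in photoreceptors and do not report on taste in whole heads.

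The number of calls against control depended on several arrays. A fit that leaves out 1 array rests on 1 array in that group, and its spread comes from the other groups. Leaving out any mutant or rescue array left 0 higher (2 to 7 at an unadjusted p under 0.05) and 1 lower in mutant against control (limma). Leaving out either rescue array left 0 and 0 in rescue against control, with 4 or 5 higher and 7 or 11 lower at an unadjusted p under 0.05. With control replicate 1 left out, whose partner had the lowest 5' to 3' ratios, 2 receptor genes rose and 15 fell in mutant against control, and 2 rose and 14 fell in rescue against control. Of the genes that fell, 6 and 5 were above the dim level. With each array scaled to its 75th percentile, 1 rose and 9 fell in mutant against control and 1 rose and 7 fell in rescue against control, while the median of all probe sets moved by -0.089 and -0.066.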

How the data were processed

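Each array has 1 linear intensity per probe set in the deposited values. The submitters' processing notes name RMA, which corrects background, equalises the distributions of arrays and summarises probes, and give no version. RMA compresses differences of dim probe sets and removes a change shared by all transcripts. Values ran from 5.6 to 16778.3. From log2 intensity, 18769 of 18952 probe sets were tested after leaving out 183 control probe sets. The test was limma 3.58.1 in R 4.3.3 (lmFit, eBayes, 3 groups and 6 arrays in 1 fit, two-sided, Benjamini-Hochberg over all probe sets within each comparison). Residual degrees of freedom were 3, and the prior added 4.0. The procedure was tested on simulated data. With 2 arrays a group, precision is limited by that number and a permutation test cannot go below 0.333.

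Gene symbols came from the platform annotation, and all 109 were found under the same symbol in the gene table of Release 6. No sequence is shown, since the sources used here hold none. Named genes were those past the threshold, the 5 largest differences each way per comparison above the dim level, the 8 brightest Gr and Ir genes, and lists by role. The genes, lists and tests were chosen with earlier results of these data known.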

Additional observations from a re-analysis of the deposited data

How the results depend on the processing

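Over 2208 values of named differences under alternative settings, 55 lost the call, 25 gained one and none that had a call turned its sign. Another 132, past the threshold under neither setting, changed sign. The counts of receptor genes higher and lower were 1 and 3 in mutant against control, 2 and 1 in rescue against mutant, and 2 and 2 in rescue against control. With only the 2 groups compared in the fit they were 0 and 1, 2 and 1, and 1 and 1. Adding the 5' to 3' ratios to the fit made them 2 and 4, 2 and 0, and 1 and 0. With 75th percentile scaling they were 1 and 9, 2 and 1, and 1 and 7. With log2 of intensity plus 16 the count lower in rescue against mutant was 0, and with trend and robust eBayes the count higher was 1. Leaving out 1 array gave 0 to 2 higher and 1 to 15 lower in mutant against control, 0 to 2 and 0 to 1 in rescue against mutant, and 0 to 2 and 0 to 14 in rescue against control. Of the 23 counts of 0 in these limma fits, each had 1 to 11 genes at an unadjusted p under 0.05. With array weights, every probe set of a gene, or only probe sets above the dim level, counts stayed within 1.5 times.

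The number above the dim level was 22. It was 1 with the 95th percentile of the eggshell genes, 5 with the median of all probe sets, 19 with the highest Tag value over all arrays, and 22 to 24 without 1 array. Signal near background limits most of the 109 genes.

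With the replicate number as a block, the counts were 0 and 2 in mutant against control, 0 and 0 in rescue against mutant, and 1 and 2 in rescue against control. The titles say nothing of a shared litter or day. Deviations of same-numbered arrays from their group means correlated at -0.255 for mutant and control, 0.0036 for rescue and mutant and -0.188 for rescue and control. With 2 arrays a group the sign of these values depends on how the arrays were numbered. They therefore cannot show whether arrays of different groups shared a batch.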

Other observations

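Of the probe sets that carry 2 symbols and so stood outside the 109 genes, 4 name a Gr or Ir gene. The one shared by Gr64d and Gr64e, receptors of the sugar receptor cluster, was 39.6 and 40.8 in rescue, 52.5 and 50.3 in mutant, and 41.3 and 39.9 in control. Both mutant arrays were the highest, and mutant against control passed (0.34 ± 0.076, limma adjusted p = 0.0339), while rescue against mutant did not (-0.35 ± 0.076, adjusted p = 0.0901). The 2 probe sets shared by Gr64b and Gr64c were dimmer in all groups, from 18.1 to 35.6 over the arrays, and did not pass. The probe set shared by Ir75d and COX6AL2 did not pass.

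The 2 nearest protein-coding genes on each side of the 6 called receptors were examined as well. These neighbours were chosen after the calls were seen, and not all had a probe set. CG14102, beside Ir76a, was 109.5 and 116.3 in rescue, 158.4 and 169.0 in mutant, and 113.6 and 123.3 in control. It rose in mutant against control (0.47, limma adjusted p = 0.0172) and fell in rescue against mutant (-0.54, adjusted p = 0.0372), which is not the order of Ir76a. CG32191, the second gene before Ir75a, was 550.9 and 560.0 in rescue, 323.1 and 319.2 in mutant, and 264.6 and 239.7 in control. It was highest in rescue, where Ir75a was lowest (rescue against mutant 0.79, adjusted p = 0.00722). Cln3, directly before Ir75a, fell in mutant against control (-0.54, adjusted p = 0.0391), where Ir75a did not pass (0.02). Fnta and tank, on either side of Ir25a, rose in mutant against control as Ir25a did (0.54 and 0.34, adjusted p = 0.02 and 0.0469). The next genes out, CG15628 and CG12194, did not pass (-0.14 and -0.15, adjusted p = 0.328 and 0.26). The other measured neighbours of the called receptors, which are most of them, passed in no comparison. Over the whole array, 6.88% of probe sets rose and 3.88% fell from control to mutant. From mutant to rescue, 0.693% rose and 0.709% fell. Whether the neighbours passed more often than these shares, or moved together with the receptors, was not tested.

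Of 9 receptor genes with several probe sets, 14 further probe sets read from 6.9 to 28.4, and 1 of them, for Gr39a, passed in any comparison.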
